A study of Equus caballus with 6 samples.

Results

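Transcripts of 3 enzymes of oestrogen and steroid metabolism, CYP19A1, SULT1E1 and AKR1C1, were followed in blood leukocytes of horses sampled before and after exercise. The genes were chosen by their before-after values on these same arrays, where CYP19A1 and SULT1E1 stood out as lower after exercise, so their before-after differences are a description, with no test. Their members are the array probes designed on a RefSeq transcript of one of the genes, and these came to 14 of the 43603 probes of the array, for 3 of the 870 genes that could be named. CYP19A1 had 9 probes, AKR1C1 had 4 and SULT1E1 had 1.

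Gene expression was measured on a 1-colour Agilent horse array in buffy coat leukocytes, the white-cell layer of centrifuged blood, of 3 warmblood geldings, which are neutered males. Horses 1, 2 and 4 each gave 1 sample before and 1 after exercise. The sample labels give ages of 11 y for horse 1, 7 y for horse 2 and 15 y for horse 4, whereas the series text states a range from 9 to 17 y, outside which horse 2 falls. The after-exercise samples are marked 60 min, but the protocol speaks of sampling immediately after exercise, so the delay is unsettled. Both groups share breed type, castration and tissue. Of the 6 arrays, those of horses 1 and 2 before exercise were on slide 2, and the remaining 4 were on slide 1. On each array 64.1% to 69.4% of the non-control spots were well above background, and the 75th percentile of the signal ranged from 1124 to 2536. The blood cell label was checked on 22 leukocyte markers, of which 13 could be named and all 13 were measured, among them CD14, CD2 and MMP9. The number of arrays limits the precision of every value below.

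Oestrogens are made from androgens by aromatase, the product of CYP19A1, a cytochrome P450 that works with the electron donor POR. The gene is known for high activity in gonads and placenta, and in the stallion the testis is a rich source of oestrogen, a source that castration removes. SULT1E1 transfers a sulfate group onto oestrogens, which keeps them from binding their receptor, and the sulfatase STS reverses this step. AKR1C1, listed in RefSeq also as AKR1C23, belongs to the aldo-keto reductases, which reduce keto groups of steroids such as progesterone.

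Detection differed between the 3 genes and between probes of a gene. A probe counts as measured here where it was well above background, by the mark of the scanner software, on at least 3 of the 6 arrays, and each gene had 1 such probe. For CYP19A1 this was probe A_69_P000426, well above background on all 3 arrays before and on 2 of 3 after exercise. The other 8 CYP19A1 probes, designed on the same transcript NM_001081805, were not well above background on any array. Their processed signals, the scanner's background-subtracted intensities, lay between 4.21 and 18.0 with a median of 7.14, and the software's own error of these spots lay between 4.15 and 8.97. All before-after values of aromatase below therefore rest on 1 of its 9 probes. The AKR1C1 probe A_69_P012651 and the SULT1E1 probe A_69_P000661 were well above background on all 6 arrays. A further AKR1C1 probe, A_69_P129101, passed this mark only on both arrays of horse 2, and the other 2 AKR1C1 probes passed it on none.

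**Figure D1:**
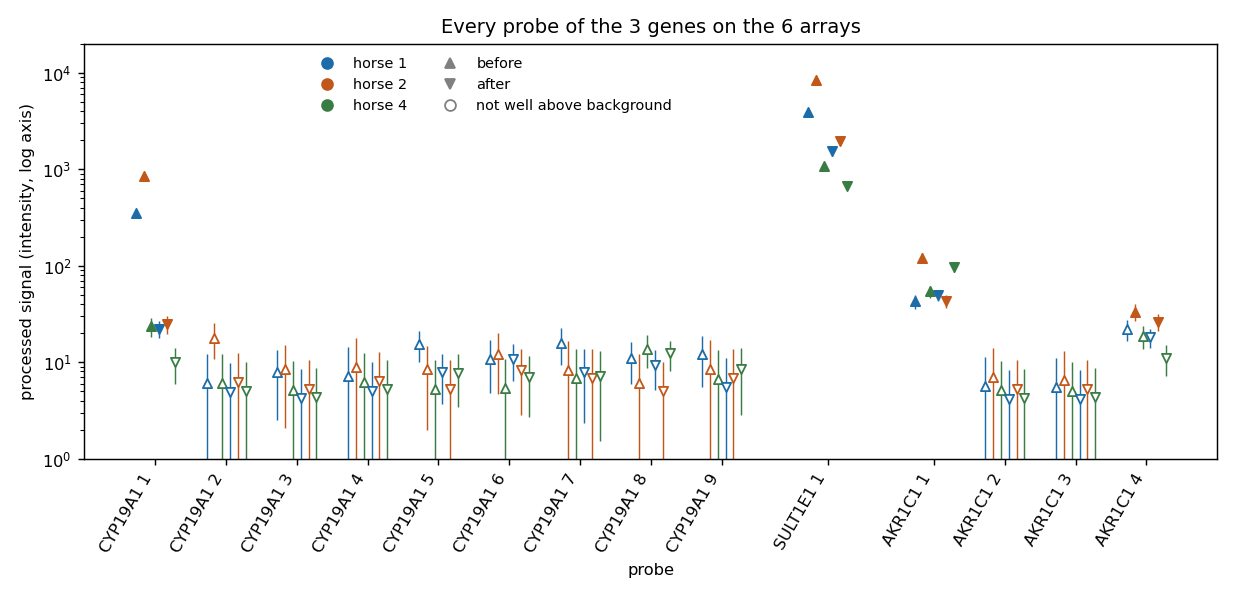
Processed signal (intensity, log axis) of every probe of the 3 genes on the 6 arrays, the measured probe of each gene first; upward triangles are samples before and downward triangles samples after exercise, colours are horses, open symbols are spots not well above background, and bars are the scanner software's error of the spot, drawn down to 1 at the lowest. Only the first CYP19A1 probe rises clear of the others, at 355 in horse 1 and 861 in horse 2 before exercise, and the SULT1E1 probe is at 677 or more on every array.

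For aromatase, the signal stood high on only 2 arrays, those of horses 1 and 2 before exercise. The processed signal of its measured probe was 355 (software error 35.8) in horse 1, 861 (86.3) in horse 2 and 23.5 (5.19) in horse 4 before exercise. After exercise it was 22.2 (4.40) in horse 1, 25.1 (5.33) in horse 2 and 9.97 (4.00) in horse 4, the last not well above background. The horse 4 sample before exercise thus differed from the after-exercise samples of horses 1 and 2 by less than the error of the spots. On the log2 scale relative to each array's 75th percentile, the levels before exercise were -2.34, -1.56 and -6.22 in horses 1, 2 and 4. After exercise they were -6.46, -6.48 and -6.82 in the same order. The groups did not overlap, but the gap between them was set by horse 4 before and horse 1 after exercise, whose levels lie within the spot error. All 3 before arrays were above all 3 after arrays in 3.8% of probes, and the choice of the gene used this contrast.

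The change from before to after exercise in the aromatase probe was -4.12 in horse 1, -4.92 in horse 2 and -0.60 in horse 4 on the log2 scale. Its mean was -3.21 ± 2.30 (SD over 3 horses), so the spread between horses was large against the mean. Of the 29350 other kept probes with an unflagged spot on all 6 arrays, 19 had a lower change in horse 1 and 35 in horse 2, so the aromatase probe lay at the edge of all probes in these horses. No rank is given for horse 4, where the spot after exercise was not well above background and the change of -0.60 is uncertain in size. With normexp background correction, which adds an offset of 50 to the spot intensity and shrinks differences among dim spots, the changes were -2.44, -3.26 and 0.24, with a mean of -1.82. The sign in horse 4 thus depended on the background correction.

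SULT1E1, the oestrogen sulfotransferase, was bright on every array and, like aromatase, highest on the arrays of horses 1 and 2 before exercise. Its processed signal before exercise was 3951 in horse 1, 8423 in horse 2 and 1089 in horse 4, and after exercise 1535, 1987 and 677 in the same order. The software error of these spots was 10.0% of the signal on every array. This is the software's own estimate, and with 1 probe read in 1 spot per array the spread between repeated spots was not measured. Relative to each array's 75th percentile the levels were 1.14, 1.73 and -0.69 before and -0.35, -0.18 and -0.73 after exercise on the log2 scale. The groups overlapped, since horse 4 before exercise was below horses 1 and 2 after it. The changes were -1.48, -1.91 and -0.04 in horses 1, 2 and 4, with a mean of -1.15 ± 0.98 (SD over 3 horses). Its level was thus lower after exercise in horses 1 and 2, while the change in horse 4 was smaller than the error of its spots.

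AKR1C1 did not share the direction of the other genes. Its measured probe had processed signals of 42.6, 121 and 54.2 before and 50.1, 43.2 and 96.8 after exercise in horses 1, 2 and 4. On the log2 scale the levels were -5.40, -4.39 and -5.02 before and -5.28, -5.70 and -3.54 after exercise, and the groups overlapped. The changes were 0.11, -1.30 and 1.48, and their mean of 0.10 ± 1.39 (SD over 3 horses) had no common sign. Horse 4 after exercise was the highest array and horse 2 after exercise the lowest. In horse 2 the 2 AKR1C1 probes above background disagreed in size: the dimmer one had a change of -0.16 there, against -1.30 in the brighter. The mean turned negative without the horse 1 array before exercise (-0.13), without the horse 4 array after exercise (-0.56) and without both arrays of horse 4 (-0.60).

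**Figure D2:**
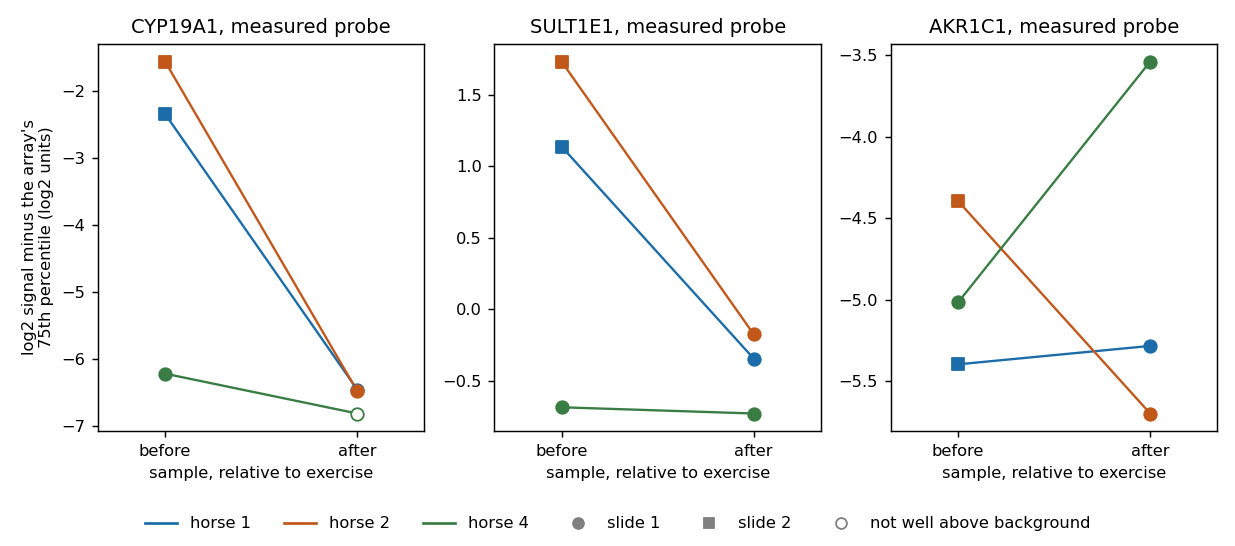
Level of the measured probe of each gene before and after exercise (y axis, log2 signal minus the array's 75th percentile, with its own range in each panel); lines join the samples of a horse, squares are arrays of slide 2, circles arrays of slide 1, and an open symbol is not well above background. CYP19A1 and SULT1E1 are highest on both squares, and on the 4 circles they span 0.60 and 0.55 on the log2 scale.

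The levels of CYP19A1 and SULT1E1 divided the arrays by slide. Both slide 2 arrays were above all 4 slide 1 arrays for CYP19A1 and for SULT1E1, but not for AKR1C1, and the same held for 16.3% of these probes. For CYP19A1 the lowest array of slide 2 was 3.88 above the highest of slide 1, on the log2 scale, and 4 of the other 29350 probes had a gap as large. For SULT1E1 the gap was 1.31, and 384 other probes had one as large. Among the 4 arrays of slide 1, which include both samples of horse 4, CYP19A1 ranged over 0.60 and SULT1E1 over 0.55. In horses 1 and 2 the sample before exercise lay on slide 2 and the sample after on slide 1, so a difference between times and a difference between slides cannot be told apart in these horses. In horse 4, with both samples on slide 1, the changes were the -0.60 and -0.04 given above.

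Fits that take slide into account gave other values. With slide as a block, and equally on slide 1 alone, where the 3 arrays after exercise stand against the horse 4 array before it, the change was -0.36 for CYP19A1 and 0.27 for SULT1E1. The sign of SULT1E1 therefore turned, and the CYP19A1 difference shrank. For AKR1C1 the change on slide 1 was 0.18. A further dependence was on single arrays: without the horse 2 array before exercise the SULT1E1 change was -0.64, and without the horse 4 array before exercise it was -1.85. The 14 spots within 2 rows and 1 column of the CYP19A1 probe on the array had median changes of -0.47, -0.02 and 0.31 in horses 1, 2 and 4. The lowest change among them was -1.36 in horse 1 and -1.03 in horse 2, against -4.12 and -4.92 for the probe itself. Around the SULT1E1 probe the medians of 14 spots were -0.20, 0.46 and 0.12. The lowest change among those spots was -1.75 in horse 1, below the -1.48 of the SULT1E1 probe, and -0.45 in horse 2, above its -1.91.

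**Figure D3:**
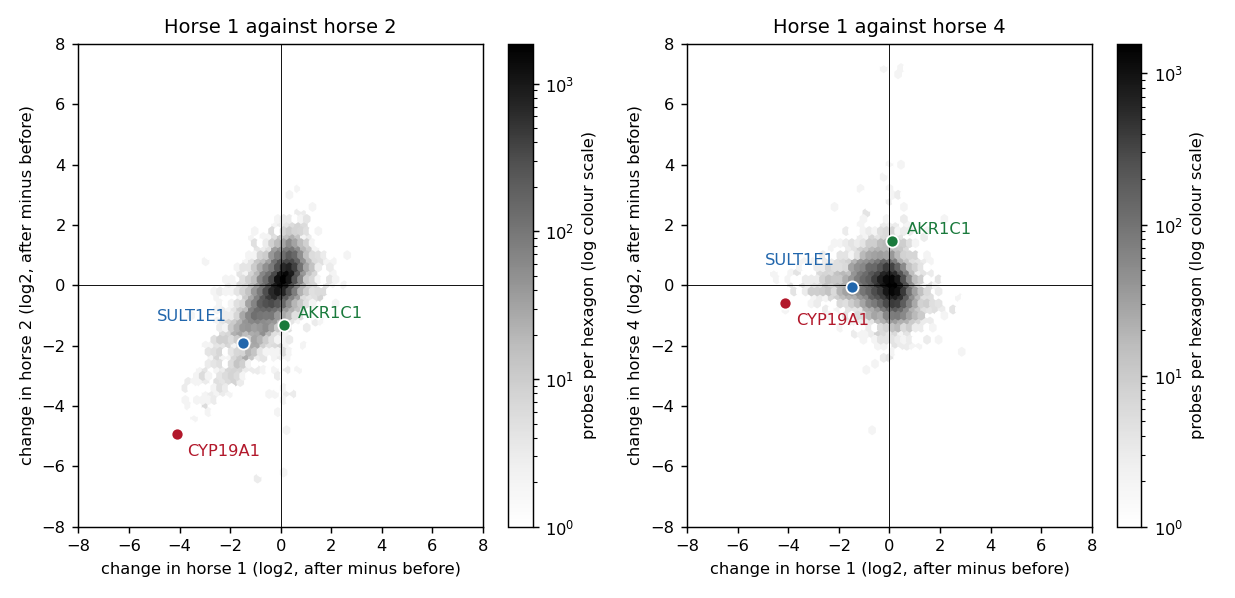
Change of each of 29351 probes from before to after exercise (log2) in horse 1 against horse 2 on the left and against horse 4 on the right; darker hexagons hold more probes. CYP19A1 lies at the lower left end of the probes in horses 1 and 2, at -4.12 and -4.92, SULT1E1 inside the same arm, and AKR1C1 at 0.11 in horse 1 with -1.30 in horse 2 and 1.48 in horse 4.

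Large negative changes in both horse 1 and horse 2 were also found in other probes. Log2 changes below -2 in both of these horses were found in 213 probes, below -3 in 60 and below -4 in 9, the CYP19A1 probe among them. Changes above 2 in both were found in 6 probes, above 3 in 1 and above 4 in 0. Over all probes the median changes were 0.02, 0.10 and 0.004 in horses 1, 2 and 4.

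Other genes had patterns like those of CYP19A1 and SULT1E1 over the 6 arrays. Likeness was taken as Pearson's r between the brightest measured probes of genes, over 573 other named genes, and it is a description, since arrays share slides and horses. CYP19A1 and SULT1E1 had r = 0.98 with each other, whereas AKR1C1 had -0.02 with CYP19A1 and -0.08 with SULT1E1. The likeness of CYP19A1 and SULT1E1 is not independent of their choice, as both stood out as lower after exercise on these arrays. The nearest genes to SULT1E1 were NFYB, a subunit of a CCAAT-binding transcription factor (r = 0.999), MC1R, a melanocortin receptor (0.984), and MSTN, the muscle growth inhibitor myostatin (0.981). PTGS2, which makes prostaglandins (0.980), and ZNF391 (0.971) came next. NFYB had changes of -0.93, -1.16 and -0.05 and PTGS2 of -1.61, -2.16 and 0.36 in horses 1, 2 and 4. The nearest genes to CYP19A1 were NAA15, part of an N-terminal acetyltransferase (0.979), TMEM207 (0.979), MSTN (0.978), the chromatin reader MPHOSPH8 (0.977) and NFYB (0.969). An r above 0.9 with CYP19A1 was found in 1823 other probes (6.21%) and with SULT1E1 in 1992 (6.79%), so the pattern was common on these arrays. With AKR1C1 only 72 probes (0.245%) had an r above 0.9. Its nearest named genes were WDR70 (0.973), prothymosin PTMA (0.888), the chloride channel CFTR (0.857), the iron-sulfur factor LYRM4 (0.844) and the cathelicidin ECATH-3 (0.828).

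Levels of the 3 enzymes were also compared between horses, in a model that also holds exercise. The genes were chosen on the before-after contrast, not on the horses. The horse means still hold the same before-exercise values, so this comparison is not independent of that choice. CYP19A1 stood at -2.34, -1.56 and -6.22 in horses 1, 2 and 4 before exercise, and at -6.46, -6.48 and -6.82 after it. Mean levels of CYP19A1 were -4.40, -4.02 and -6.52 in horses 1, 2 and 4, and those of SULT1E1 were 0.40, 0.78 and -0.71. AKR1C1 had -5.34, -5.05 and -4.28. Horse 4 was thus lowest for CYP19A1 and SULT1E1 and highest for AKR1C1, but none of the 3 passed limma's moderated F-test, with adjusted p of 0.45 for CYP19A1, 0.36 for SULT1E1 and 0.61 for AKR1C1. At an adjusted p under 0.05 that test called 0.237% of 29552 probes. Without the horse 4 array after exercise, CYP19A1 passed the F-test of limma (adjusted p = 0.044), and SULT1E1 did not (adjusted p = 0.066), in a fit that called 1.58% of probes. That fit leaves horse 4 only its array before exercise, on slide 1, against those of horses 1 and 2 before exercise on slide 2. It reuses the before-exercise values by which CYP19A1 was chosen, and horse and slide cannot be told apart in it. No conclusion on horses is therefore drawn from it. With all arrays, horse 4 had none on slide 2, so horse and slide are partly mixed in that comparison too.

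Of the other steroid genes, no named one passed the before-after test. The 6 lists held 144 genes besides the 3 enzymes, 28 of them could be named on the array and 16 were measured. In limma, fitted without the horse as a block, 0 of the 16 passed over all probes, against 0% of 29570 probes. In that unpaired fit 0 of the 16 and 855 of all probes had an unadjusted p under 0.05. Without the horse 4 array before exercise limma called 595 probes (2.01%), and without both arrays of horse 4 it called 20 (0.0676%), with 0 of the 16 genes among them in either case. The 16 genes had a median change of 0.10, with 9 above and 7 below 0, beside a median of 0.04 for all probes.

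Genes of steroid synthesis were measured in part. STAR, which moves cholesterol into mitochondria, CYB5A, an electron carrier of steroid synthesis, and POR, the electron donor of aromatase, had mean changes of 0.32 ± 0.27, 0.20 ± 0.04 and 0.13 ± 0.37 (SD over 3 horses). HSD17B1, which reduces oestrone to oestradiol, had -0.12 ± 0.27 and was well above background on 2 of the 3 arrays after exercise. Of the 3 measured STAR probes, the brightest had 0.08, 0.62 and 0.26 in horses 1, 2 and 4, and the next had 0.16, 0.55 and 0.13. The last, with -0.96, -0.56 and -0.03, disagreed with both in sign. CYP11A1, which starts steroid synthesis, HSD3B2, which makes progesterone, and CYP17A1, which leads to androgens, were on the array by name but not measured; the 2 CYP17A1 probes were above background on no array. The synthesis list had a median change of 0.17 over its 4 measured genes. Levels of the sulfatase STS, the only measured gene of 20 for conjugation, were -6.24, -5.87 and -4.26 before and -5.80, -5.78 and -4.81 after exercise, with a mean change of -0.003 ± 0.50.

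Enzymes that oxidise or hydroxylate steroids gave small changes in the mean. HSD17B4, which oxidises oestradiol and fatty acids, had 0.07 ± 0.12. The hydroxylases CYP3A89, CYP3A93, CYP3A94 and CYP3A97 had -0.14 ± 0.18, -0.16 ± 0.36, -0.19 ± 0.31 and -0.39 ± 0.70. Between horses, CYP3A89 had mean levels of -2.31, -2.99 and -5.28 in horses 1, 2 and 4 (limma F-test, adjusted p = 0.0495), a call that held in 5 of 16 alternatives (adjusted p from 0.014 to 0.38). The measured probes of CYP3A93 and CYP3A94 were above background on both arrays of horses 1 and 2 and on neither of horse 4. A further CYP3A93 probe was above background on 2 arrays before and 0 after exercise. Its changes were -0.90, -3.66 and -0.49 in horses 1, 2 and 4. Since CYP3A genes are close copies, a probe may bind the transcript of another member. The list had a median change of -0.15 over 6 measured genes.

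Among receptors and transporters, the glucocorticoid receptor NR3C1 had a mean change of -0.12 ± 0.21, the exporter ABCC1 of conjugated steroids 0.35 ± 0.91 and the steroidogenic factor NR5A1 0.34 ± 0.08. NR5A1 was higher after exercise in all 3 horses (0.32, 0.42 and 0.27) but did not pass limma's unpaired fit (adjusted p = 0.999). With the horse as a block, 0 of the 16 steroid genes passed. The NR5A1 probe was above background on 2 of 3 arrays before exercise. Its values rest on 1 of 6 NR5A1 probes, and the other 5 were above background on at most 1 array each. The oestrogen receptor ESR1 was above background on at most 2 arrays with any of its 6 probes. The oestrogen-responsive gene LTF, which is also among the leukocyte markers used here, had 0.49 ± 1.71. Its changes were 0.38, 2.25 and -1.16 in horses 1, 2 and 4. Of the 16 genes, 1 (CYP3A97) had both slide 2 arrays above all slide 1 arrays, as CYP19A1 and SULT1E1 did, and 6 had them below, against 16.3% and 19.3% of all probes.

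**Figure D4:**
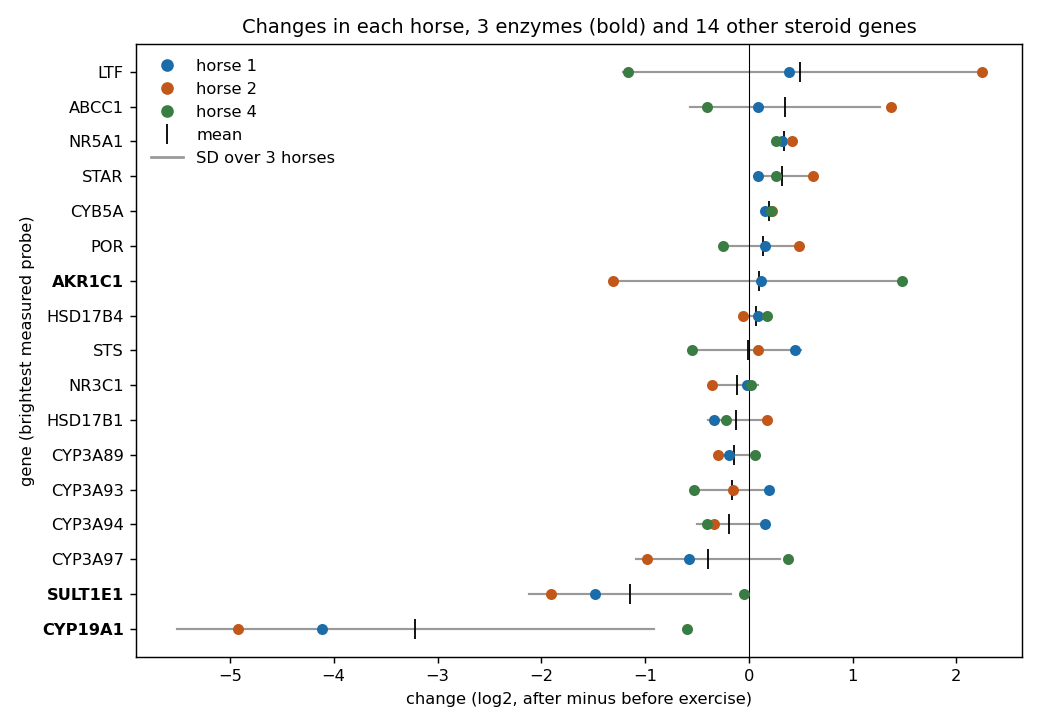
Change from before to after exercise (x axis, log2) in each horse for the brightest measured probe of the 3 enzymes, in bold, and of 14 of the 16 other steroid genes; dots are horses, the tick is the mean and the grey line spans 1 SD over the 3 horses to each side. Means of the 14 genes lie between -0.39 and 0.49, against -1.15 for SULT1E1 and -3.21 for CYP19A1.

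Markers of other cells that a buffy coat sample could hold were set beside these values. In such a mixed sample fewer cells of a type and less RNA per cell cannot be told apart. Of 14 markers of steroid-making cells, 2 were measured, STAR and NR5A1, and their summed level, where 1 is the array's 75th percentile, was 0.063 to 0.076 before and 0.078 to 0.093 after exercise. CYP17A1, INHA and INHBA were above background on no array. HSD3B2 was above background on 2 arrays, and CYP11A1 and FSHR on at most 1 with any of their probes. Of 14 uterine, placental and adipose markers 3 were measured: CGA, SCGB1A1 and SERPINA14. Their summed level was 0.682 to 0.828 before and 0.663 to 0.969 after exercise. CGA and SCGB1A1 were well above background on every array with all of their probes. Their brightest probes had mean changes of 0.16 and -0.02. PRL, LHB and P19 were above background on no array, and LEP on at most 1 with any of its probes. A dim marker adds little to this sum: SERPINA14, a uterine serpin, was highest on the horse 4 array before exercise, and its measured probe had changes of -0.42, -0.81 and -1.79 in horses 1, 2 and 4. It was the only measured gene of the lists with an unadjusted p under 0.05 in limma's unpaired fit (0.042, adjusted p = 0.999). Its measured probe was above background on 2 arrays before and 1 after exercise. The SERPINA14 values rest on this 1 measured probe. Among its other probes, A_69_P006653 had changes of -2.57, -0.46 and 3.00 in horses 1, 2 and 4, and A_69_P006674 of -1.17, -3.21 and -0.31. The rest were above background on no array. The part of SERPINA14 in the enzyme values was not tested. The erythroid markers HBB and HBA2, 2 of 8 listed, had a summed level of 4.84 to 407 before and 27.1 to 486 after exercise. The erythroid marker SLC4A1 was above background on no array with any of its 5 probes. In horses 1, 2 and 4 HBB was higher after exercise by 0.90, 2.80 and 0.42. The part of red cell transcripts in the enzyme values was not tested. Platelet markers, 3 of 8, had a summed level of 25.0 to 35.5 before and 24.9 to 32.8 after, and the 13 leukocyte markers 34.1 to 58.8 before and 47.4 to 63.6 after exercise.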

How the data were processed

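Per the labels, Cy3-labelled total RNA of 6 samples was hybridised to 1 array each. Per the file headers, each deposited array was read with Agilent Feature Extraction 10.10.1.1 (protocol GE1_1100_Jul11), and its deposited intensity is background-subtracted within the array and not scaled between arrays. No coordinate of the design's build, EquCab1, is given. The 3 genes and all gene lists were chosen with earlier results of these data known.

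Intensities were put on the log2 scale, with the 75th percentile of the array's 43803 non-control spots set to 0. Outlier-flagged spots (67 to 169 per array) were dropped, and repeated spots averaged per probe. Probes were kept where well above background on at least 3 of 6 arrays. Through unversioned RefSeq accessions and a gene table of the assembly TB-T2T, 1979 probes were matched to 870 genes, and 41624 probes stayed unnamed. Each gene is represented by the kept probe with the highest mean signal. The 3 before and 3 after samples were compared in limma 3.58.1 (lmFit, eBayes; R 4.3.3) with two-sided tests, and horses by its moderated F-test given exercise. Adjusted p-values (Benjamini-Hochberg) cover all probes of a fit, with calls made under 0.05. The fits were tested on simulated data. Horse numbers in the labels pair samples of the same animal, and same-numbered arrays deviated together from their group means (r of 0.36, 0.40 and 0.23 across probes in horses 1, 2 and 4); the fit with the horse as a block was an alternative. Genes named are the 3 enzymes, up to 6 measured genes of each steroid list in order of signal, and the 5 genes with the most similar pattern to each enzyme, besides markers; a few genes that this rule takes are not reported here.

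Alternatives were normexp background correction (offset 50, run on the median spot intensity, where the mean had been planned), quantile normalization, no filter or a filter on all 6 arrays, flagged spots kept, the horse or the slide as a block, slide 1 alone, and each array or horse left out.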

Additional observations from a re-analysis of the deposited data

How the results depend on the processing

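No setting called any of the 16 steroid genes in limma's before-after test, including 28 genes tested without a filter and 10 with the filter on all 6 arrays, which drops CYP19A1. Fitted paired, with the horse number as a replicate block, limma called 0 probes in the before-after test (1792 with an unadjusted p under 0.05), and the changes of CYP19A1 (-3.21), SULT1E1 (-1.15) and AKR1C1 (0.10) were those given above. With slide as a block limma called 131 probes, on slide 1 alone 122, and in both the changes were -0.36 for CYP19A1 and 0.27 for SULT1E1, where the cause was not tested. With single arrays or horses left out, the before-after count ran from 0 to 595, the change of CYP19A1 from -4.64 to -2.30, of SULT1E1 from -1.85 to -0.64 and of AKR1C1 from -0.60 to 0.80. The count of 595 and the changes of -4.64 and -1.85 came without the horse 4 array before exercise, where time and slide coincide. The count of probes that differ between horses, 70, was 1 after quantile normalization, 2 without a filter, 1 with flagged spots kept, 255 without the exercise term and 1 with slide as a block, and 0 to 466 with arrays or horses left out. The adjusted p of CYP19A1 in that F-test of limma ran from 0.044 to 0.860 with arrays or horses left out, below 0.05 only without the horse 4 array after exercise. Without that array horse 4 is read only before exercise and on slide 1, so horse and slide cannot be told apart there. The F-test could not be fitted on slide 1 alone, which leaves no residual degrees of freedom. A remaining limit is that aromatase was read by 1 of 9 probes. That probe gave 355 and 861 in horses 1 and 2 before exercise, whereas the other 8, designed on the same transcript, gave at most 18.0 on any array. Why the probes differ was not tested. On 4 of 6 arrays the measured probe gave at most 25.1, where the spot error was 19.8% to 40.1% of the signal.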
